A study of Mus musculus with 4 samples.

Results

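The sites described here are the adenosines of mitochondrial RNA that GLORI listed as N6-methyladenosine (m6A) in mouse retinal organoids. They were chosen as all rows on chrM of the 4 deposited site tables, keyed by position and strand, with no use of a measured value. There were 618 such sites of 1076788 distinct sites in the series, and they filled 693 rows of the tables. The study asked what the acute loss of METTL3, the catalytic subunit of the main nuclear mRNA m6A methyltransferase, does to m6A in retinal progenitors. All 4 libraries came from organoids of an Rx:GFP line that carries FKBP12F36V-HA at the C-terminus of endogenous Mettl3, grown to day 6 in medium with 0.1 µM AGN. The untreated group (0 h, n = 2) received no dTAG13, and the dTAG13 group (n = 2) was held in 125 nM dTAG13, a degrader of proteins with this tag, for 8 h. Every library therefore carried the tagged allele, and no untagged line was compared. The label of each library names a different Mettl gene (Mettl3 to Mettl6), whereas the design text names Mettl3 for all. The labels do not say that the replicates of a group came from separate cultures, so p-values measure only the spread between these libraries.

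Mitochondrial DNA is transcribed from both strands into long RNAs, which are cut at the tRNAs into 2 rRNAs, mRNAs for subunits of the respiratory chain and ATP synthase, and tRNAs. Most genes are read as plus-strand RNA, and ND6 and a group of tRNAs as minus-strand RNA. RNA opposite to the genes is made too and is normally removed quickly. This RNA is made and modified inside the organelle by enzymes of its own, among them TFB1M, which dimethylates the N6 of a pair of adjacent adenosines near the 3′ end of the small-subunit rRNA. METTL3 is not known to act there. GLORI deaminates unmethylated A, which is then read as G, so any adenosine that resists deamination reads as A. The level of a site is its number of A reads divided by its A and G reads together, and the unconverted share of a gene is the share of its A that still read as A.

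All 4 libraries were polyA RNA. They listed 220034 to 350462 sites each, and mitochondrial sites made up 0.041% to 0.090% of them. Coverage of the retinal progenitor genes Rax, Pax6, Six3, Six6 and Lhx2 was between 135.4 and 656 in every library. The pluripotency genes Pou5f1, Nanog, Sox2 and Zfp42 had coverage between 59.0 and 702, the pigment epithelium genes Mitf and Pmel between 105.1 and 150.6, and the neuronal genes Tubb3 and Stmn2 between 39.6 and 244. The other marker genes of neurons (Dcx, Elavl3) and pigment epithelium (Tyr) did not have a value in every library. Neither did the mesoderm genes T and Mesp1 and the neural crest genes Sox10 and Foxd3. A gene has a value only where a site in it is listed, so a missing value does not show that its RNA was absent. The part of other cell types in the mitochondrial values was not tested. In such bulk samples fewer cells of a type and less RNA per cell cannot be told apart.

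Mitochondrial sites were deeply read and mostly close to the listing limit. Median depth at a site (A plus G) was 312 ± 7.07 reads in the untreated and 371 ± 15.9 in the dTAG13 libraries (mean ± SD, n = 2 each). Sites elsewhere had medians of 75 to 91 reads. The median level of mitochondrial sites was 14.3% and 14.5% in the untreated and 14.9% and 15.8% in the dTAG13 libraries. Elsewhere it lay between 31.9% and 35.5%, so mitochondrial sites were lower in 4 of 4 libraries, by 18.9 ± 1.08 percentage points (SD, n = 4; exact two-sided paired permutation p = 0.125, the smallest that 4 libraries allow). Neither this comparison nor the next was matched for reads, which were more numerous on chrM. Levels of 90% or more were rare. Untreated replicate 1 listed 1 such mitochondrial site and untreated replicate 2 listed 0, which allows a share of up to 2.10% by counting error, while the dTAG13 libraries listed 4 and 3. Between 23.5% and 27.7% of the other sites reached that level (lower on chrM in 4 of 4 libraries, exact paired permutation p = 0.125). The lowest level listed anywhere on chrM was 10%, and the lowest read numbers were 15 A and G reads and 5 A reads. The median level was lower where reads were more numerous. No site was listed with under 5 A reads, so sites with few reads enter only at higher levels. The listing itself thus sets part of this order, and how large a part was not tested. Sites with fewer than 100 reads at most had a median level of 27.1%, those with 100 to 1000 reads 15.7%, and those with 1000 or more 11.9%. The unconverted share is given for each gene and for the chromosome outside genes. The level stood at a median of 3.92 and 4.90 times this share in the untreated and of 5.20 and 4.70 times in the dTAG13 libraries. As the share enters the site test of the authors, listed sites lie above it by selection.

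**Figure D1:**
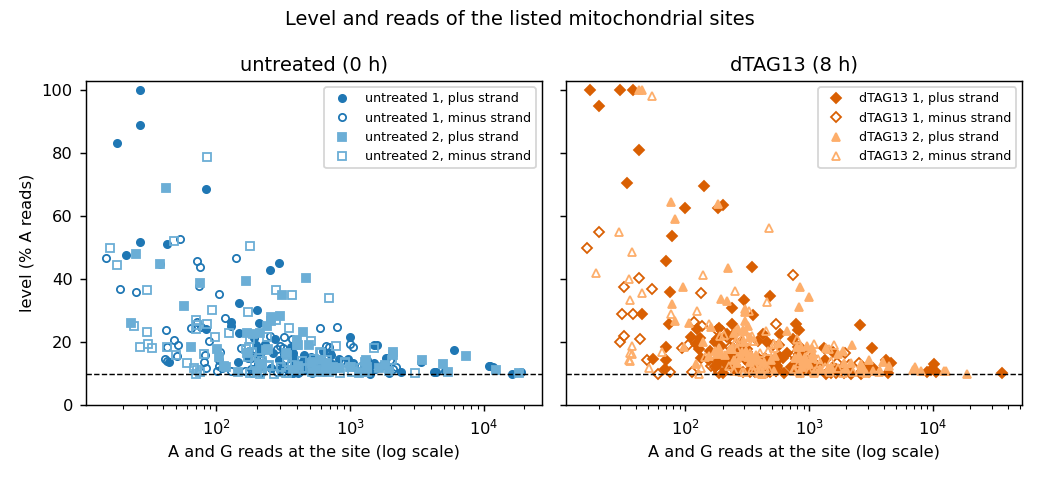
Level in percent against the number of A and G reads on a log scale, 1 point per listed mitochondrial site and library, untreated libraries on the left and dTAG13 libraries on the right, with filled points for the plus strand and open points for the minus strand; the dashed line is the listing limit of 10%. Sites with 1000 reads or more lie in the lower part of the plots, with no mean level above 25.5%, and the sites at or near 100% have few reads.

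Of the 37 genes that RefSeq places on the mitochondrial chromosome, 25 had a listed site: 12 of 13 mRNA genes, 2 of 2 rRNA genes and 11 of 22 tRNA genes. ND6, the only mRNA gene of the minus strand, had no listed site on that strand. Of the 618 sites, 243 lay in a gene on its own strand and 375 (60.7%) lay outside genes as the tables assign them, 270 of these on the minus strand and 105 on the plus strand. Between 47.2% and 76.2% of a library's mitochondrial sites were outside genes, against 18.7% to 23.2% of the other sites (higher on chrM in 4 of 4 libraries, exact paired permutation p = 0.125). The plus strand held 332 sites and the minus strand 286.

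The strands differed in where their sites lay. Over the 2537 bases of the rRNA genes the plus strand had 17 distinct sites (6.70 per kb) and the minus strand, opposite to the rRNAs, had 94 (37.1 per kb). Over the 10833 bases of the 12 plus-strand mRNA genes the order was turned, with 195 sites on the plus strand (18.0 per kb) and 138 on the minus strand (12.7 per kb), although untreated replicate 2 had 2.40 per kb on the plus and 4.34 on the minus strand. In single libraries the minus strand over the rRNA genes had 9.07 to 11.8 sites per kb and the plus strand 0.394 to 2.76. These densities were not corrected for the number of adenosines on each strand, since the sequence was not used here.

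The 2 rRNA genes had 17 sites, of which 10 lay in mt-Rnr1, the small-subunit rRNA, and 7 in mt-Rnr2, the large-subunit rRNA. The 1 site of mt-Rnr1 listed in more than 1 library was chrM:1006 on the plus strand, 18 bases before the 3′ end of the gene. Its level was 26.0% of 208 reads (Wilson 95% interval 20.5 to 32.3%) in untreated replicate 1 and 23.0% of 213 reads (17.9 to 29.1%) in untreated replicate 2. The mean was 24.5% ± 2.09 (SD, n = 2), and the unconverted share of the gene was 9.15% and 7.48% in these libraries. That share enters the site test of the authors, so a listed site lies above it by selection. The position was listed in neither dTAG13 library, so its level there is unknown. Its neighbours, named after their values were seen, were each listed once: chrM:1007 in dTAG13 replicate 1 at 69.5% of 141 reads (61.5 to 76.5%) and chrM:1008 in untreated replicate 2 at 17.8% of 101 reads (11.6 to 26.4%). Reads at chrM:1006 were 0.05 of the mean coverage of the gene in both untreated libraries. All 3 positions lie near the 3′ end, where TFB1M is known to act, but no sequence was read to identify its target. In mt-Rnr2 the 1 site listed in more than 1 library was chrM:2654, 21 bases before the 3′ end, at 10.2% of 1170 reads in untreated replicate 2 and 15.3% of 934 reads in dTAG13 replicate 2.

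Genes for subunits of complex I, the NADH dehydrogenase of the respiratory chain, held 136 of the 195 sites in mRNA genes, and ND2 the most of them. Pooled over the 4 libraries, ND2 had 52 distinct sites, or 50.1 per kb of its 1038 bases, against 6.38 to 26.9 per kb in the other 11 mRNA genes. It had 9 and 4 sites in the untreated and 29 and 15 in the dTAG13 libraries. The pooled density thus rests mostly on the dTAG13 libraries and is not independent of the comparison of groups. In untreated replicate 1 ND1 had 8 sites, close to ND2, and in untreated replicate 2 ND5 had 8, more than ND2. The ND2 counts of the groups did not overlap, and the means were 6.50 ± 3.54 and 22.0 ± 9.90 (SD, n = 2 each), a ratio of 3.38. The exact two-sided permutation test of 2 against 2 libraries gave p = 0.333, the smallest it can give. Without untreated replicate 1 the ratio was 5.50, and over all 4 omissions of a library it ran from 2.31 to 5.50. ND2 coverage overlapped between the groups (754 and 1077 untreated, 746 and 1079 with dTAG13). The unconverted share of ND2 was 6.67% and 5.93% in the untreated and 3.61% and 6.19% in the dTAG13 libraries, lowest in the library with 29 sites. Reads per listed ND2 site were lower with dTAG13, with medians of 280 and 331 against 507 and 626. The part of either value in the count was not tested. At chrM:4000, the ND2 site with the highest mean level among those in exactly 2 libraries, the level was 43.1% of 253 reads (37.1 to 49.2%) in untreated replicate 1 and 13.9% of 324 reads (10.5 to 18.1%) in dTAG13 replicate 1.

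The other complex I genes showed no such separation of counts, except ND4L with 2 and 0 sites against 3 and 3. ND5 had 30 distinct sites, ND4 had 21, ND1 had 17, and ND3 and ND4L had 8 each. The site at chrM:11853 in ND5 was listed in all 4 libraries, 1712 bases before the 3′ end of the gene. Its level was 10.7% of 4222 reads and 14.3% of 3421 reads in the untreated libraries and 11.6% of 3232 reads and 12.3% of 4432 reads in the dTAG13 libraries. The untreated replicates differed by 3.61 points and enclosed both dTAG13 values. In ND1, chrM:3291 was at 10.9% of 5102 reads and 12.98% of 4953 reads in the untreated libraries (11.9% ± 1.47, SD, n = 2) and was not listed with dTAG13. In ND4, chrM:11282 was at 11.9% of 371 reads in untreated replicate 1 and at 22.7% of 247 reads in dTAG13 replicate 1.

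**Figure D2:**
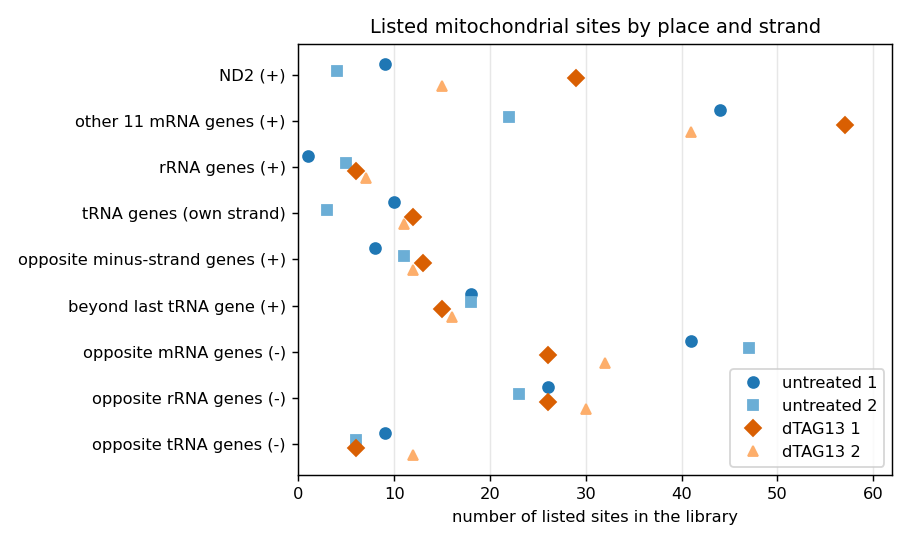
Number of listed sites (x axis) in each of the 4 libraries by place on the mitochondrial chromosome and strand (rows), 1 point per library. ND2 has 9 and 4 sites in the untreated and 29 and 15 in the dTAG13 libraries, and sites opposite the mRNA genes number 41 and 47 against 26 and 32.

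COX1, which encodes the catalytic subunit of cytochrome c oxidase (complex IV), had the highest coverage of the mitochondrial genes with a value in every library and few sites, 10 in all. Of these, 7 lay in its last 50 bases, and 5 were listed in 2 or more libraries. The site at chrM:6830, 42 bases before the 3′ end, was listed in all 4 libraries, at 12.6% of 10809 reads and 11.05% of 12337 reads in the untreated and at 10.6% of 9015 reads and 10.7% of 12650 reads in the dTAG13 libraries. The dTAG13 values were both below the untreated ones. Closer to the end of the gene, sites named after their values were seen had fewer reads and higher levels in untreated replicate 1. The site at chrM:6847 had 3373 and 3692 reads and levels of 13.7% and 10.6% in untreated replicate 1 and dTAG13 replicate 2. The site at chrM:6862 had 997 and 777 reads and levels of 21.8% and 14.5% in untreated replicate 1 and dTAG13 replicate 1. At chrM:6869, 3 bases before the end, dTAG13 replicates 1 and 2 had 817 and 991 reads, 0.04 of the gene's coverage, and levels of 18.4% (15.9 to 21.2%) and 34.3% (31.4 to 37.3%). Over the 12 mRNA genes together, 34 of 195 sites (17.4%) lay in the last 50 bases, which make up 5.51% of their length, a description that takes no account of base composition.

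The remaining subunit genes of complex IV and ATP synthase showed high levels at positions with few reads. COX2 had 1 site in each untreated library and 5 and 3 in the dTAG13 libraries. Its site at chrM:7687, 9 bases before the 3′ end, was at 17.2% of 157 reads and 64.5% of 76 reads in the dTAG13 libraries. In COX3, chrM:8618 was at 45.1% of 293 reads in untreated replicate 1 and at 100% of 30 reads (88.6 to 100%) in dTAG13 replicate 1, where the gene had a coverage of 13719. COX3 had 0 listed sites in dTAG13 replicate 2 and thus no coverage value there. In ATP6, a subunit of ATP synthase, chrM:8606, 1 base before the 3′ end, was at 53.8% of 78 reads in dTAG13 replicate 1 and at 13.8% of 435 reads in dTAG13 replicate 2. ATP8, which overlaps ATP6, had 0 and 1 sites in the untreated and 1 and 3 in the dTAG13 libraries. A nuclear copy of ATP6, the pseudogene Gm10925, was listed with 1 to 3 sites and a coverage of 30.4 to 44.5, which is 0.439% to 0.584% of that of ATP6. Reads can be shared between such copies, so a small part of the ATP6 values is uncertain.

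CYTB, the mitochondrially encoded subunit of complex III, had 17 distinct sites, with 3 in each untreated library and 8 and 5 in the dTAG13 libraries. Its site at chrM:14191 was at 13.5% of 520 reads in untreated replicate 2 and at 30.8% of 237 reads in dTAG13 replicate 1, and chrM:14159 was at 100% of 17 reads (81.6 to 100%) in dTAG13 replicate 1. Of the 12 mitochondrial genes with sites in all 4 libraries, 3 (COX2, CYTB and ND2) had more sites in both dTAG13 libraries than in both untreated libraries, and 0 had fewer. Over the 12520 genes of the series with sites in all 4 libraries, 4.53% had more in both and 44.6% had fewer in both.

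Sites in tRNA genes were few per library, 10 and 3 in the untreated and 12 and 11 in the dTAG13 group, and their genes are short. Their median level was 19.3%. In TrnR, the arginine tRNA, chrM:9865 lay 10 bases before the 3′ end and was at 62.7% of 185 reads (55.5 to 69.3%) and 32.1% of 78 reads (22.7 to 43.0%) in the dTAG13 libraries. In TrnT, the threonine tRNA, chrM:15350 was at 13.9% of 187 reads and 33.0% of 218 reads in the same libraries. The unconverted share of TrnT also differed between them, at 2.86% and 12.6%. Relative to it the level was 4.86 and 2.62 times as high, so the order of the replicates was turned. In TrnS1, a serine tRNA of the minus strand, chrM:6937 was at 15.9% of 82 reads in untreated replicate 1 and at 14.98% (11.4 to 19.4%) in dTAG13 replicate 1. The levels of the dTAG13 replicates thus stood far apart in TrnR and TrnT, and the TrnS1 intervals overlapped.

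Beyond the last tRNA gene, in the stretch that contains the control region of the chromosome, the plus strand had 56 distinct sites, 18 in each untreated library and 15 and 16 in the dTAG13 libraries. The site at chrM:15674 was listed in all 4 libraries, at 17.5% of 5971 reads and 15.7% of 7340 reads in the untreated and 14.3% of 4170 reads and 14.4% of 3060 reads in the dTAG13 libraries. Both dTAG13 values lay below both untreated ones. The nearby chrM:15721 was at 19.2% of 1579 reads in untreated replicate 1, 16.9% of 868 reads in dTAG13 replicate 1 and 37.5% of 843 reads in dTAG13 replicate 2. At chrM:15724 the levels were 19.1% of 1516 reads and 16.9% of 2087 reads in the untreated libraries and 24.0% of 825 reads in dTAG13 replicate 1. The dTAG13 replicates at chrM:15721 differed by 20.5 points. Elsewhere on the plus strand outside genes, chrM:5155, opposite the tRNA gene TrnN, was at 20.8% of 399 reads in untreated replicate 2 and at 34.6% of 482 reads in dTAG13 replicate 1.

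On the minus strand, opposite the genes, 3 sites were listed in 3 libraries. At chrM:2251, opposite mt-Rnr2, the level was 12.0% of 2194 reads in untreated replicate 1 and 10.7% of 1973 reads and 10.8% of 3733 reads with dTAG13. At chrM:6791, opposite COX1, it was 16.7% of 606 reads in untreated replicate 2 and 10.8% of 798 reads and 14.5% of 1183 reads with dTAG13. At chrM:9837, opposite TrnR, it was 35.2% of 105 reads in untreated replicate 1 and 10.7% of 75 reads and 22.0% of 191 reads with dTAG13. In each of these sites the untreated value was the highest, with 1 untreated library missing. Sites opposite the mRNA genes numbered 41 and 47 in the untreated and 26 and 32 in the dTAG13 libraries, a ratio of 0.659 that ran from 0.591 to 0.727 when a library was left out. Here the groups did not overlap (exact permutation p = 0.333, the smallest possible). All listed sites of the series were also fewer with dTAG13, 335607 and 350462 untreated against 220034 and 263069. Of the 12520 genes with sites in all 4 libraries, 44.6% had fewer in both dTAG13 libraries. Sites opposite both rRNA genes overlapped between the groups, at 26 and 23 against 26 and 30 (exact permutation p = 0.667). Of these, sites opposite mt-Rnr2 numbered 11 and 12 in the untreated and 19 and 17 in the dTAG13 libraries, and those opposite mt-Rnr1 15 and 11 against 7 and 13.

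**Figure D3:**
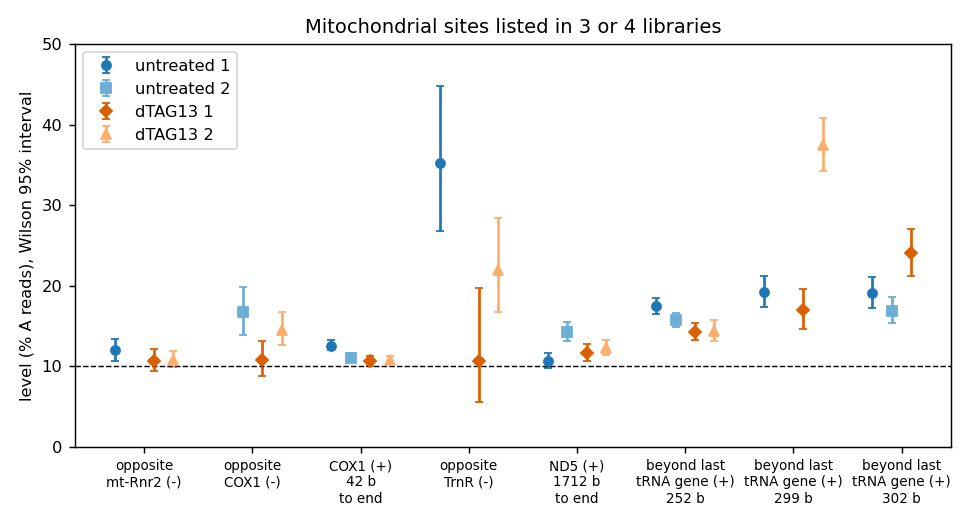
Level in percent of A reads at the 8 mitochondrial sites listed in 3 or 4 libraries (x axis, named by gene or place and distance), 1 point per library with its Wilson 95% interval; the dashed line is the listing limit of 10%. The sites in COX1 and ND5 stay between 10.6% and 14.3%, and the site opposite TrnR spreads from 10.7% to 35.2%.

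The numbers of listed sites separated the groups on the plus strand and overlapped on the minus strand, and no such number could pass a test with 2 libraries per group. The plus strand had 87 and 63 sites in the untreated and 129 and 100 in the dTAG13 libraries, on average 75.0 ± 17.0 and 114.5 ± 20.5 (SD, n = 2 each). On the minus strand they were 84 and 80 against 68 and 82. The difference on both strands together was 32.5 sites (171 and 143 against 197 and 182; exact permutation p = 0.333, the smallest possible), and it was 18.5 without untreated replicate 2. Without ND2 the plus strand still had fewer sites in the untreated libraries, 78 and 59 against 100 and 85. In the mRNA genes other than ND2 the counts overlapped, at 44 and 22 against 57 and 41 (exact permutation p = 0.667). They were higher with dTAG13 in the rRNA genes (1 and 5 against 6 and 7) and opposite minus-strand genes (8 and 11 against 13 and 12). Beyond the last tRNA gene they were lower with dTAG13 (18 and 18 against 15 and 16). On both strands together, sites at 20% to 40% numbered 26 and 33 against 40 and 41. Sites below 20% overlapped, at 130 and 101 against 140 and 128. The lists of the whole series were shorter with dTAG13, at 335607 and 350462 sites untreated against 220034 and 263069. Mitochondrial sites made up 0.051% and 0.041% of them untreated against 0.090% and 0.069%. Sites elsewhere at 20% to 40% numbered 88070 and 92286 against 57768 and 64532. The number of listed sites depends on depth and on the unconverted share, neither of which was held equal, and their part was not tested.

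Sites listed in all 4 libraries allowed a test of the level. The quasi-binomial model, fitted to 2321 such sites of the whole series with at least 20 reads in each library, included 3 mitochondrial sites. None of the 3 passed an adjusted p of 0.05, and 0 of 3 had an unadjusted p under 0.05, while 2.28% of all sites tested passed. The change was -0.50 percentage points at chrM:11853 in ND5 (adjusted p = 0.995), -1.12 points at chrM:6830 in COX1 (adjusted p = 0.741) and -2.25 points at chrM:15674 (adjusted p = 0.564), beside a median of 0.104 points over all sites tested. At 2 of the 3 both dTAG13 libraries lay below both untreated ones, as at 19.4% of all sites tested. The listing limit of 10% lies just under these levels, and a site below it in any library could not enter the test.

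Sites recurred little, with 554 of the 618 (89.6%) seen in a single library. A further 56 were seen in 2 libraries, 5 in 3 and 3 in all 4. The share listed in 2 or more was 10.4%, against 7.45% of the sites elsewhere. Of the 56 sites in 2 libraries, 9 were in the untreated pair, 11 in the dTAG13 pair and 36 in mixed pairs. The untreated libraries shared 13 sites, 7.60% of the first list and 9.09% of the second. The dTAG13 libraries shared 18, which is 9.14% and 9.89% of their lists, and the mixed pairs shared 10 to 19. The numbers shared by replicates of a group thus lay within the range of the mixed pairs. Elsewhere in the genome the untreated pair shared 8.54% and 8.17% of its lists, the dTAG13 pair 6.18% and 5.17%, and the mixed pairs 4.40% to 7.01%. Recurrence was 2.97% among mitochondrial sites with fewer than 100 reads at most, 11.3% at 100 to 1000 reads and 13.5% at 1000 reads or more.

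Where replicates did share a site, their levels often differed by more than counting error. The Wilson intervals of the replicates did not overlap at 4 of 13 sites shared by the untreated libraries and at 10 of 18 shared by the dTAG13 libraries. The widest gap was at chrM:46 on the minus strand, opposite TrnF, the phenylalanine tRNA gene, with 11.5% of 182 reads (7.67 to 17.0%) in untreated replicate 1 and 78.8% of 85 reads (69.0 to 86.2%) in untreated replicate 2. Close by, chrM:53 on the same strand was at 14.2% of 387 reads and 56.4% of 473 reads in the dTAG13 libraries. The median gap was 2.20 points in the untreated pair and 9.99 points in the dTAG13 pair, and 9.05 and 7.46 points at sites elsewhere. The intervals cover counting error only.

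Some sites were listed in both libraries of a group and in neither of the other, and those given next were chosen after their values were seen. In the untreated pair, chrM:8996 in COX3 was at 10.01% of 16106 reads and 10.1% of 18419 reads, close to the listing limit and with replicates 0.10 points apart. CYTB had chrM:15170 at 14.4% of 1328 reads and 15.8% of 2097 reads, and the minus strand opposite ND1 had chrM:2754 at 13.1% of 206 reads and 13.4% of 194 reads. In the dTAG13 pair, ND2 held 3 of the 11 such sites. They were chrM:4263 (16.8% of 179 reads and 23.8% of 290 reads), chrM:4294 (11.6% of 396 reads and 19.8% of 576 reads) and chrM:4909 (13.6% of 214 reads and 15.8% of 209 reads). Replicate gaps were 2.24 to 8.18 points in ND2 and 0.10 to 1.45 points at the 3 untreated sites named here. These picks do not stand for their groups. Over all 9 such sites of the untreated pair the gaps ran from 0.10 to 67.3 points, and over all 11 of the dTAG13 pair from 2.24 to 47.3 points. A site that is not listed in a library has no level there, so these sites give no difference between the groups.

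**Figure D4:**
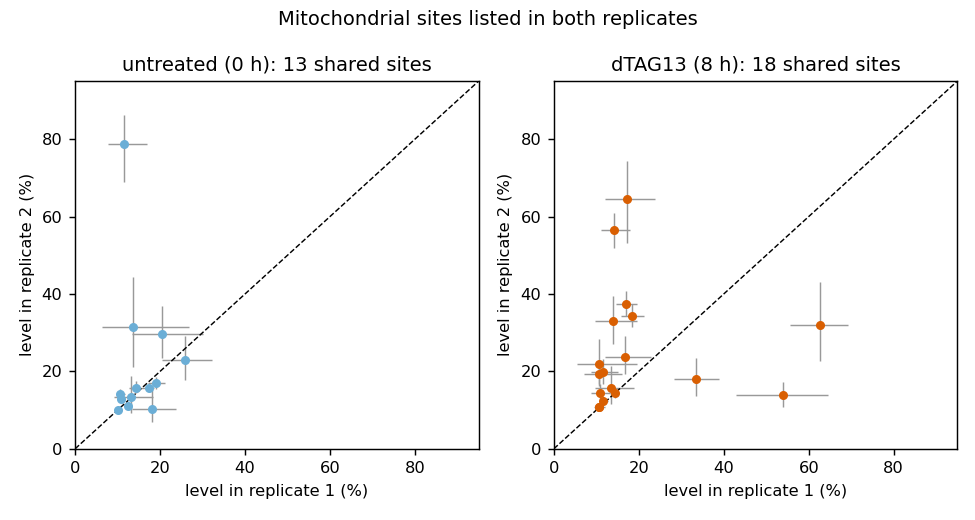
Level in replicate 1 (x axis) against replicate 2 (y axis), in percent with Wilson 95% intervals, at the mitochondrial sites listed in both untreated libraries (left, 13 sites) and in both dTAG13 libraries (right, 18 sites); the dashed line marks equal levels. The intervals are apart at 4 of the 13 and at 10 of the 18 sites.

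The 3 sites with the highest level of each library were in most cases listed in that library alone. Untreated replicate 1 was led by chrM:16281 on the plus strand (27 of 27 reads A), chrM:11748 in ND5 (24 of 27) and chrM:5093 opposite TrnN (15 of 18). Untreated replicate 2 was led by chrM:46, by chrM:6940 on the plus strand between genes (29 of 42) and by chrM:5164 on the minus strand (25 of 48). In dTAG13 replicate 1 all A reads were seen at chrM:15785 on the plus strand (38 reads), chrM:8618 in COX3 and chrM:14159 in CYTB. In dTAG13 replicate 2 the highest were chrM:15816 on the plus strand (45 of 45 reads), chrM:4143 in ND2 (42 of 42) and chrM:16189 on the minus strand (53 of 54). None of these had over 85 reads.

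The abundance of mitochondrial transcripts was compared through gene coverage, with limma over 12520 genes. Of 12 mitochondrial genes with a value in all 4 libraries, 0 passed an adjusted p of 0.05 in either direction, as did 0% of all genes, and 1 had an unadjusted p under 0.05, against 12.7% of all genes. Coverage of COX1 was 25646 and 28279 in the untreated and 19555 and 25778 in the dTAG13 libraries, a log2 change of -0.18 ± 0.20 (SE) relative to the median gene (adjusted p = 0.709). The gene with the smallest p was TrnS1, at 943 and 1120 without and 1673 and 2329 with dTAG13 (log2 change 1.02 ± 0.20, adjusted p = 0.363). TrnR was also higher in both dTAG13 libraries, at 50.3 and 71.7 against 167 and 80.2 (log2 change 1.03 ± 0.49, adjusted p = 0.431). ATP6 was the 1 mitochondrial gene lower in both, at 7855 and 8432 against 6031 and 7625 (adjusted p = 0.708). Of all genes, 10.1% were higher and 28.1% lower in both dTAG13 libraries. Such direct comparisons of libraries use coverage without centring. The median log2 change of the 12 mitochondrial genes was -0.03, beside -0.07 over all genes, with 5 positive and 7 negative. Without centring, where the median change over all genes was -0.15, 2 were positive and 10 negative, and without untreated replicate 2 the median was 0.05 with 8 positive and 4 negative. Genes enter this comparison only with a listed site in every library, so COX3 (18190 and 20084 untreated, 13719 in dTAG13 replicate 1) and mt-Rnr2 (7689 in untreated replicate 2, 5281 and 8413 with dTAG13) were not tested.

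The unconverted share of mitochondrial genes also did not separate the groups in most genes. Among the 12 genes it was highest in mt-Rnr1, at 9.15% and 7.48% in the untreated and 6.46% and 8.57% in the dTAG13 libraries. In COX1 it was 3.55% and 2.99% against 2.91% and 3.28%. COX2 (5.88% and 4.11% against 3.74% and 4.09%) and ND1 (4.07% and 3.56% against 3.53% and 3.46%) were lower in both dTAG13 libraries, as were 40.9% of all genes. TrnR (3.41% and 1.39% against 5.21% and 5.90%) was higher in both, as were 6.05% of all genes. With limma on the log2 odds, 0 of 12 passed an adjusted p of 0.05, 0% of all genes did, and 1 of 12 had an unadjusted p under 0.05, against 12.3% of all genes. The median change was -0.18 on the log2 odds scale, beside -0.29 over all genes, with 2 positive and 10 negative. Without dTAG13 replicate 1 there were 6 of each and the median was 0.00017. For sites outside genes the tables give 1 unconverted share per library for both strands of chrM, 3.50% and 2.80% without and 2.56% and 2.96% with dTAG13.

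**Figure D5:**
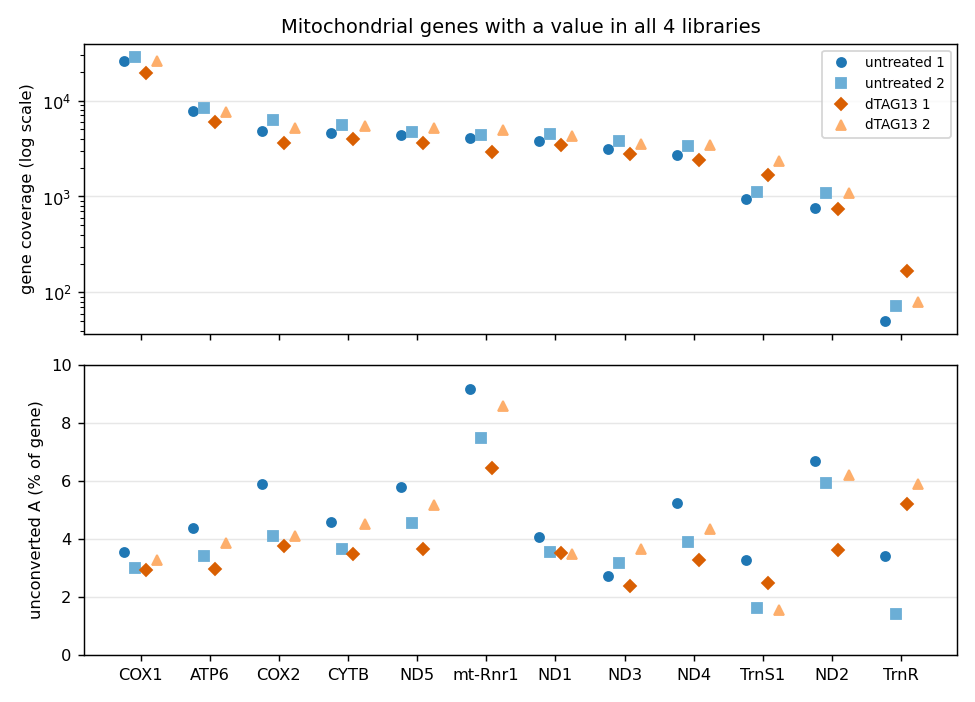
Gene coverage on a log scale (upper panel) and unconverted share of A in percent (lower panel) of the 12 mitochondrial genes with a value in all 4 libraries, ordered by untreated coverage, 1 point per library. TrnS1 and TrnR have higher coverage in both dTAG13 libraries, and mt-Rnr1 has the highest unconverted share in every library.

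Nuclear genes that transcribe, cut, modify, stabilise or degrade mitochondrial RNA were read from the same coverage fit. Of 46 listed genes 42 had a value in all 4 libraries, 0 passed an adjusted p of 0.05 in either direction, and 4 had an unadjusted p under 0.05 with limma, beside 12.7% of all genes. Their median log2 change was 0.06, beside -0.07 over all genes. The 5 with the smallest p were Tefm, Tfb2m, Mrm1, Fastk and Mrm2. Tefm, the elongation factor of the mitochondrial RNA polymerase, had a coverage of 80.0 and 65.0 without and 102.2 and 178.5 with dTAG13 (log2 change 0.99 ± 0.25, SE; adjusted p = 0.363). Tfb2m, its initiation factor, was at 60.6 and 82.4 without and 88.5 and 122.7 with it (adjusted p = 0.367). Mrm1 and Mrm2, ribose methyltransferases of the large-subunit rRNA, were at 46.9 and 54.1 against 55.8 and 120.7, and at 58.4 and 33.9 against 64.5 and 73.3 (adjusted p = 0.367 and 0.414). Fastk, an RNA-binding protein of mitochondria, was at 129 and 117 without and 70.0 and 89.6 with dTAG13 (log2 change -0.55 ± 0.20, adjusted p = 0.373). The groups did not overlap in any of these 5, which follows largely from their choice by the smallest p. Of the 42 genes, 8 were higher and 6 lower in both dTAG13 libraries than in both untreated ones, beside 10.1% and 28.1% of all genes. These counts use coverage without centring, unlike the log2 changes, which are relative to the median gene. Tfb1m, the dimethyltransferase of the small-subunit rRNA named here for the sites near chrM:1006, was at 83.4 and 69.1 without and 91.3 and 94.8 with dTAG13 (log2 change 0.38 ± 0.24, adjusted p = 0.532).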

How the data were processed

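GLORI libraries of polyA RNA, 2 per group, were deposited as 1 site table each. Per the file names, the authors used the second mate after trimming of adapters and molecular identifiers; the aligner and caller are not given in the sources used here. The deposited read counts (A, and A plus G) are not normalised. The deposited fractions are the site level and the conversion rate per gene, and the level equalled the ratio of counts at all 693 mitochondrial rows. The deposited coverage signal per gene is not scaled to depth. The authors' adjusted p-value served only as a stricter filter. The submitters' processing notes name mm10, and 276 of 276 genic chrM rows fell inside the RefSeq GRCm38.p6 interval of their gene, against 10.7% of nuclear rows. Only mitochondrial intervals were therefore used. No mitochondrial sequence was used.

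Mitochondrial genes were taken by their chrM rows. The planned rule assumed names that start with mt-, but in the tables only mt-Rnr1 and mt-Rnr2 do. Levels were tested with a quasi-binomial model per site (dispersion moderated with squeezeVar of limma 3.58.1 and held at 1 or above), and log2 coverage and the log2 odds of the unconverted share (offset 0.001) with limma, each over all features with Benjamini-Hochberg adjustment. Single values had exact permutation tests. Intervals are Wilson 95% intervals. Both model scripts were tested on simulated data. Named sites were those in 3 or more libraries, the highest mean level per gene and strand among sites in 2 libraries, and the 3 highest levels per library. Named genes were the mitochondrial mRNA and rRNA genes with sites and the tRNA genes with a site in 2 or more libraries. The 5 nuclear list members with the smallest p were also named, since none passed. The plan was to name every mitochondrial gene with sites, but the other tRNA genes were not described singly. The members, lists and rules were chosen with earlier results of these data known. Alternatives were read and level minimums, other scales and filters, a replicate block and omission of each library.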

Additional observations from a re-analysis of the deposited data

How the results depend on the processing

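The numbers past the threshold were 0 for the level of mitochondrial sites, for the coverage and unconverted share of mitochondrial genes and for the coverage of the listed nuclear genes, and stayed 0 under every alternative run for these 4 results, leaving out each library included. The difference in listed sites (32.5 more with dTAG13) was 32.5 with at least 50 reads, 34.0 at an adjusted p of the authors under 0.001 and 14.0 at levels of 20% or more, and ran from 18.5 to 46.5 when a library was left out. The difference in the median level of mitochondrial sites (0.928 percentage points higher with dTAG13) was 0.990 with at least 50 reads, 0.488 to 1.37 without 1 library, and turned to -1.44 over the 3 sites listed in all 4 libraries; by construction that value rests on fewer sites. Labels give both groups replicate numbers 1 and 2 but state no shared source. Deviations of equal numbers correlated at 0.00227 for coverage, 0.00789 for the unconverted share and 0.0385 for site levels, and with the replicate number as a block the calls stayed at 0. With 2 libraries per group no single value could reach an exact p below 0.333, and a position absent from a table may be unmethylated, below the limits or uncovered.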
